A study of Mus musculus with 8 samples.

Results

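The 34 genes described here encode proteins that move, phosphorylate, split, rebuild or store sugar in the liver. They cover glucose transport, glycolysis, gluconeogenesis, glycogen and the entry of fructose. Members were found by matching the symbol in the authors' deposited table to a list of 34 symbols, and all 34 were present among its 16640 genes. The rule uses symbols alone and no measured value, but the list itself was chosen with earlier results of these data known.

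Whole livers of mice aged 1 year, fed chow at will, were compared by bulk RNA sequencing. The WT group had 4 livers and an intact Huwe1 gene. The Huwe1_LKO group had 4 livers from mice with a liver-specific knockout of Huwe1, which encodes a HECT-type ubiquitin ligase. The sources used here do not give strain, sex, deleted exons or what drives the deletion. The title of the series sets the comparison in the context of fatty liver disease and lipid metabolism. For each gene the deposited table lists a normalized value for either group, the log2 fold change (Huwe1_LKO over WT) and p-values. Single livers have no values in what was analysed here, so the spread within a group cannot be shown and whether the groups overlap is not known. Errors are implied standard errors (SE), obtained from each deposited log2 fold change and its p, with n = 4 livers in each group. The p-values set each difference between the groups against variation estimated from these livers only.

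Hepatocytes take up glucose through a low-affinity carrier and trap it as a phosphate ester. They then burn it to pyruvate, turn it into fat or store it as glycogen, and in fasting they run the path backwards to release glucose into blood. Several steps have a liver isoform and a separate isoform used by most other cells. Fructose enters by its own kinase and bypasses the phosphofructokinase step, which is the main control point of glycolysis.

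Of the 34 members, 4 rose and 10 fell in Huwe1_LKO at an adjusted p under 0.05 in the authors' deposited table (DESeq2, Benjamini-Hochberg over all genes). Of all genes tested, 4.41% were called higher and 5.56% lower, 9.97% in all. Calls were more frequent among abundant genes. Among the 2196 genes with a mean of both group values of 1000 or more, 21.5% were called, 6.01% higher and 15.5% lower. At that level 2 of 21 members rose and 9 fell, and among the 13 less abundant members 2 rose and 1 fell. Of genes with a mean from 10 to under 1000, 5.62% were called higher and 5.64% lower. The median deposited log2 fold change was -0.32 over the members, 0.02 over all genes and -0.08 over the abundant genes.

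The risers were Pfkfb3, Aldoa, Pck2 and Gys2. Those that fell were Gckr, Hk2, Gapdh, Pgk1, Eno1, Pklr, Khk, Gbe1, Pygl and Ppp1r3b. Among the 20 members that did not pass, 13 had a deposited log2 fold change below 0 and 7 above, and 7 had an unadjusted p under 0.05. Over all 34 members, 23 were below 0 and 21 had an unadjusted p under 0.05. Of all 16640 genes, 7796 were below 0 and 3408 had such a p. Of the 2196 genes with a mean of 1000 or more, these were 1370 and 819. The member nearest to the threshold on the called side was Pgk1, at an adjusted p of 0.0245 in the deposited table. Ugp2 was the nearest on the other side, at 0.0774.

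Other call rules gave similar counts of members, with 1 exception. At an adjusted p under 0.01, 4 members were higher and 8 lower, where 2.49% and 3.37% of all genes were (5.86% in all). With a fold of at least 1.5 added to the threshold of 0.05, 3 were higher and 6 lower, where 2.78% and 3.03% of all genes were (5.81% in all). With p adjusted over the 12309 genes with a mean of 10 or more, 4 were higher and 10 lower, where 6.45% and 8.17% of those genes were (14.6% in all). Centring the fold changes on the median of those genes left 4 higher and 10 lower, where 4.19% and 5.89% of all genes were (10.1% in all). Centring on the most abundant eighth of genes left 4 higher and 8 lower, where 7.02% and 3.76% of all genes were (10.8% in all).

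**Figure D1:**
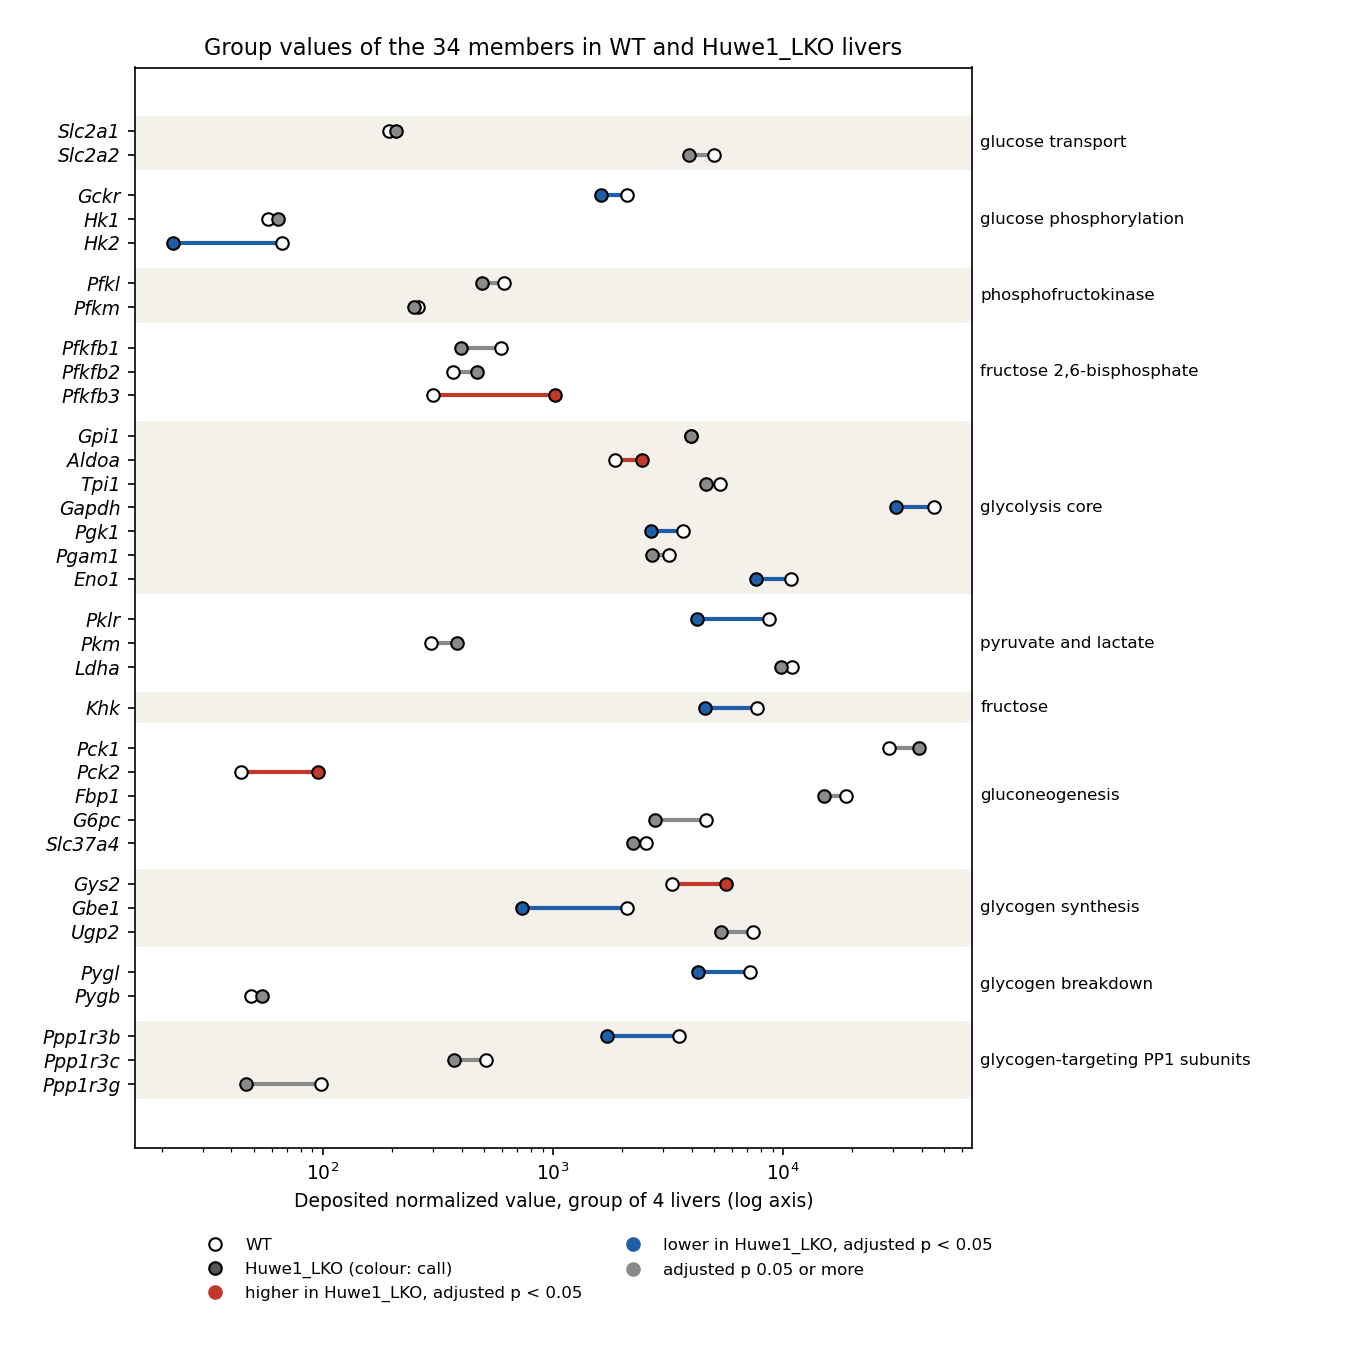
Deposited normalized value (log axis) of each of the 34 members in WT (open circles) and Huwe1_LKO livers (filled circles, coloured by call at an adjusted p under 0.05), 1 value per group of 4 livers, ordered by step of the pathway. Gapdh has the highest WT value (45255) and the longest lines belong to Pfkfb3, Hk2 and Gbe1.

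**Figure D2:**
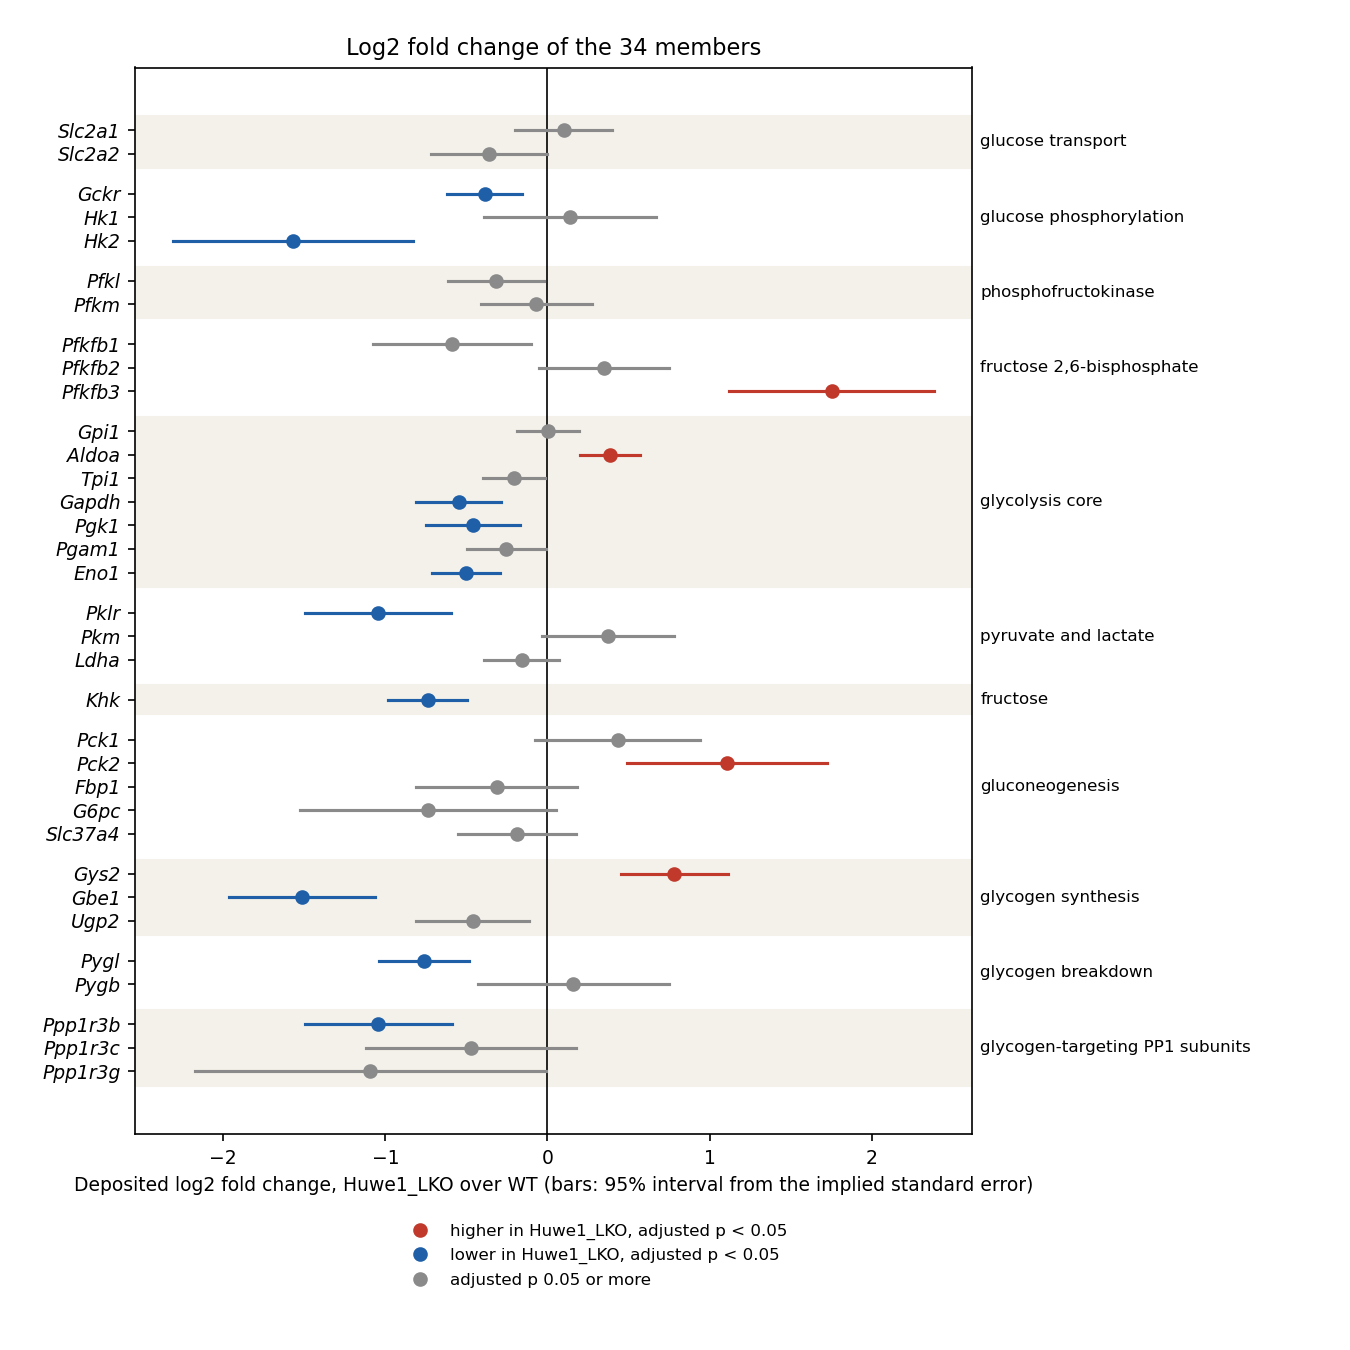
Deposited log2 fold change of Huwe1_LKO over WT for the 34 members, with bars for the 95% interval from the implied standard error and colours for the call. Pfkfb3 (1.75) lies farthest to the right, and Hk2 (-1.57) and Gbe1 (-1.51) farthest to the left.

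Huwe1 itself had 66.9% of its WT value in the knockout livers in the deposited table (adjusted p = 0.000425). That value covers all liver cells and any exons that were not deleted. All 6 hepatocyte markers stood at 8990.2 or more in both groups. Of these, 2 were called, in opposite directions, where 21.5% of genes with a mean of 1000 or more were. Hnf4a rose from 8990.2 to 11654 (deposited adjusted p = 0.0318) and Apoa2 fell from 164596 to 106683 (deposited adjusted p = 0.0392), while Alb, Ttr, Cps1 and Tat did not pass. Of 41 measured markers of other cells, 2 were called higher (the neutrophil genes S100a9 and Retnlg) and 0 lower, where 4.41% and 5.56% of all genes were. Retnlg was low, at 3.78 (WT) and 11.3 (Huwe1_LKO). The neutrophil genes Csf3r (59.8 and 102) and S100a8 (9.89 and 28.0) did not pass. Ly6g, also a neutrophil gene, went the other way, at 7.52 and 5.02 (not called). Summed deposited values went from 107 to 226 for neutrophil markers, from 900.4 to 1620 for 5 bile duct markers and from 85.9 to 156 for markers of dividing cells. Spp1 alone accounted for most of the bile duct sum, at 722 and 1410.3 (not called, deposited adjusted p = 0.174), and Krt7 stood at 13.9 and 9.40. The sums were 1569 and 1885 for macrophages, 1437 and 1514 for endothelium, and 3985 and 4597 for stellate cells and fibroblasts. Summed fat cell markers stood at 0.640 and 0.616, and the measured skeletal muscle marker, Acta1, at 0.494 and 0.491. In whole tissue, fewer cells of a type and less RNA per cell cannot be told apart.

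Glucose transport showed no called change. Slc2a2 encodes GLUT2, the carrier of hepatocytes, and stood at 5022 (WT) and 3915 (Huwe1_LKO) in the deposited table (log2 fold change -0.36, implied SE 0.18, adjusted p = 0.241). Slc2a1 encodes GLUT1, the carrier of most other cells, and stood at 195 and 209 in the same deposited table. Its log2 fold change of 0.10 had a 95% interval from -0.20 to 0.40. Per kilobase of transcript, the deposited level of Slc2a2 was 25.8 times that of Slc2a1 in WT and 18.8 times in Huwe1_LKO.

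Of 3 members that trap glucose or control its trapping, 2 fell, where 5.56% of all genes were called lower. Hk2, a high-affinity hexokinase of muscle and fat that healthy hepatocytes hold at low levels, went down from 66.2 to 22.3 in the deposited table. This is 2.97-fold lower (log2 fold change -1.57, implied SE 0.38, adjusted p = 0.00097), the largest fall of any member in deposited log2 fold change. With a pseudocount of 10 added to the group values, its log2 ratio was -1.24 and that of Gbe1, at -1.50, was the larger fall. It lies on chromosome 6 (82725025 to 82774454, GRCm38.p6, as are all gene positions here). The measured markers of muscle (Acta1) and fat cells (Adipoq and Lep), which also hold Hk2, stood at under 1 in both groups. Which cells gave the Hk2 signal was not tested. Gckr encodes a regulatory protein of hepatocytes that responds to fructose phosphates and limits glucose trapping at low glucose. It fell from 2104 to 1608 in the deposited table (log2 fold change -0.39, implied SE 0.12, adjusted p = 0.0143). Hk1, the hexokinase of most tissues, stood at 57.9 and 63.6 and did not pass in the deposited table (log2 fold change 0.14, implied SE 0.27, adjusted p = 0.849). Hk1 and Hk2 were thus close per kilobase in WT (13.9 and 12.0) and apart in Huwe1_LKO (15.3 and 4.04) in deposited values. A test of the difference between the genes needs values per liver and was not run.

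Phosphofructokinase genes did not pass. Pfkl, the liver subunit, stood at 615 (WT) and 493 (Huwe1_LKO) in the deposited table (log2 fold change -0.32, implied SE 0.15, adjusted p = 0.195). Pfkm, the muscle subunit, stood at 259.7 and 248 in the deposited table, and the 95% interval of its log2 fold change ran from -0.41 to 0.27. Per kilobase, Pfkl made up 61.9% of the 3 phosphofructokinase genes in WT and 57.4% in Huwe1_LKO.

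The enzymes that make and remove fructose 2,6-bisphosphate, the allosteric activator of phosphofructokinase, showed the largest rise of any member. Pfkfb3, an isoform with high kinase and little phosphatase activity, went from 302 to 1018 in the deposited table. This is 3.37-fold higher (log2 fold change 1.75, implied SE 0.32, adjusted p = 3.93e-06), with a 95% interval of the log2 fold change from 1.12 to 2.38. The gene spans 11471430 to 11554071 on chromosome 2. Pfkfb1, the liver isoform, whose balance of kinase and phosphatase is switched by glucagon and insulin, stood at 596 in WT and 397 in Huwe1_LKO. It did not pass in the deposited table (log2 fold change -0.59, implied SE 0.25, adjusted p = 0.121). Pfkfb2, known from heart, stood at 367 and 467 and did not pass (deposited log2 fold change 0.35, implied SE 0.20, adjusted p = 0.342).

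The shares of the isoforms in this step moved more than their sum. Per kilobase, the 4 genes of the family summed to 470.3 in WT and 524 in Huwe1_LKO in deposited values. Pfkfb1 went from 72.3% to 43.2% of that sum and Pfkfb3 from 13.3% to 40.4%. The ratio of Pfkfb3 to Pfkfb1 per kilobase was 0.184 in WT and 0.935 in Huwe1_LKO. These ratios are of group values and carry no error. The sum of the neutrophil markers given above was also higher, though Ly6g was not. Their part in the rise of Pfkfb3 was not tested.

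**Figure D3:**
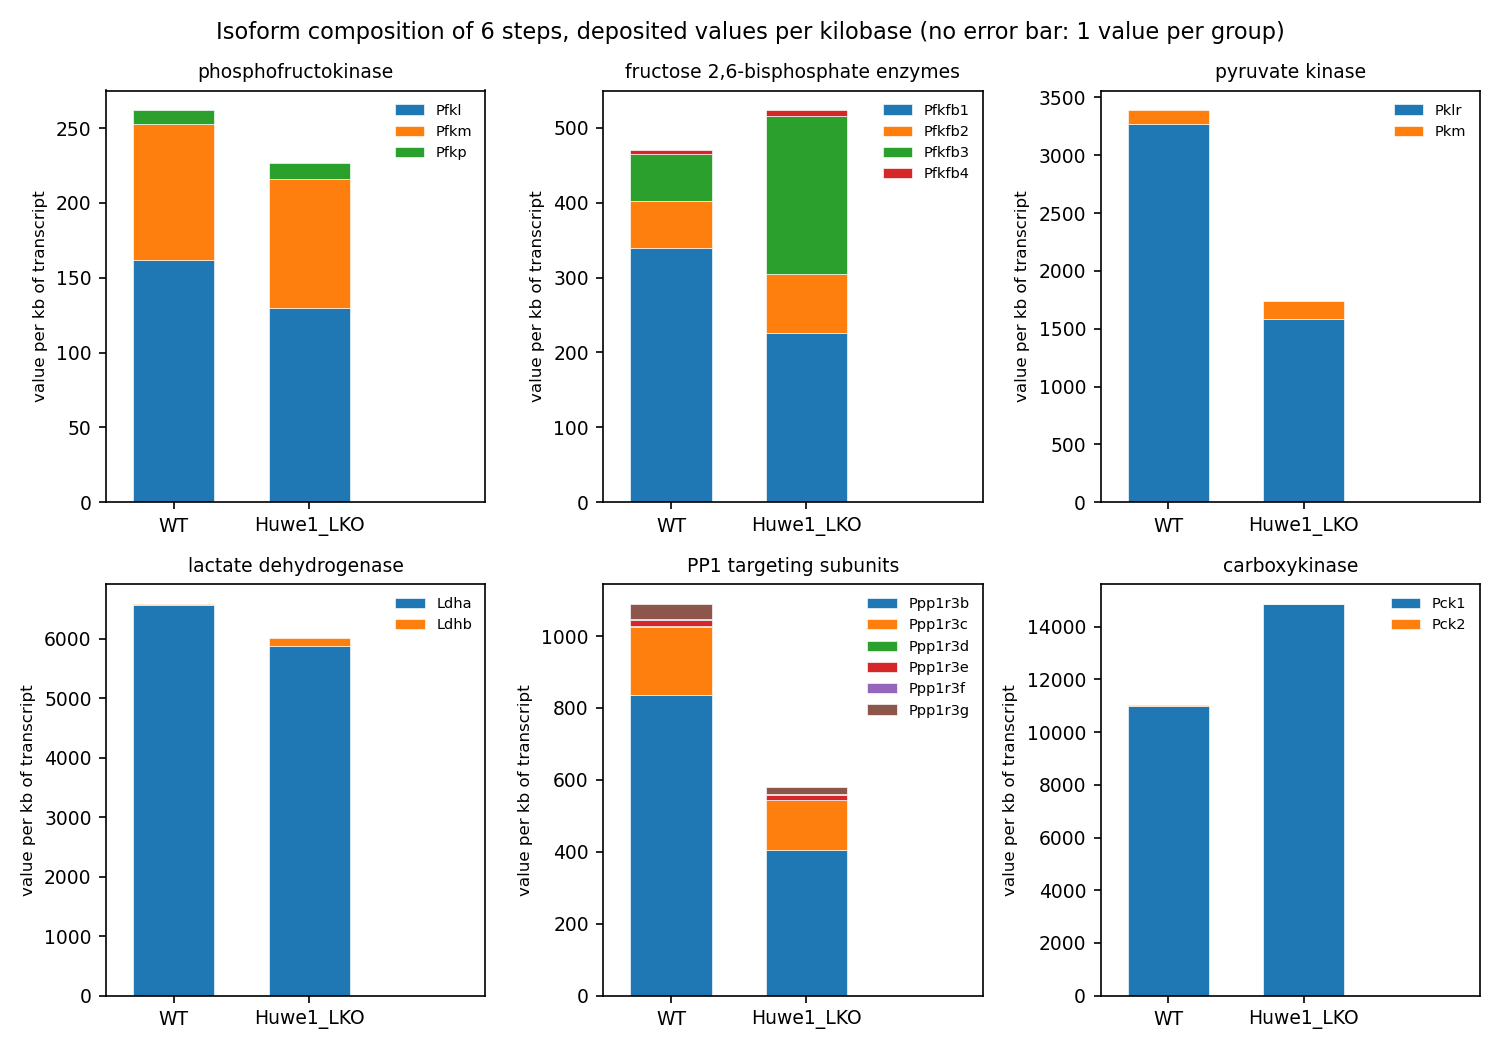
Deposited group values per kilobase of transcript for the isoforms of 6 steps, stacked, in WT and Huwe1_LKO livers (1 value per group, no error bars). The bars of pyruvate kinase fall from 3391 to 1740, while Pfkfb3 grows from 13.3% to 40.4% of its bar.

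In the shared trunk of glycolysis, from the isomerase to enolase, 3 genes fell and 1 rose of 7. All 7 had means over 1000, where 15.5% of genes were called lower and 6.01% higher. Gapdh, which makes the first high-energy phosphate of the path, is the member with the highest WT value and is often used as a reference gene. It fell from 45255 to 30941 in the deposited table, to 68.4% of WT (log2 fold change -0.55, implied SE 0.13, adjusted p = 0.00126). Pgk1, the next enzyme and the first to yield ATP, fell from 3662 to 2661 in the deposited table (log2 fold change -0.46, implied SE 0.15). Eno1, enolase, fell from 10816 to 7628 in the deposited table (log2 fold change -0.50, implied SE 0.11, adjusted p = 0.000108).

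Reads of some of these genes may have been divided among near-identical copies, which makes their values uncertain. Eno1b, a close copy of Eno1, was lower as well, at 699 and 191 in the deposited table (log2 fold change -1.87, adjusted p = 0.013). Added together, Eno1 and Eno1b went from 11515 to 7819, which is 67.9% of WT against 70.5% for Eno1 alone. Gapdh is known for its many processed pseudogenes.

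Aldoa, the aldolase of muscle and most other tissues, rose from 1863 to 2430 in the deposited table (log2 fold change 0.38, implied SE 0.09, adjusted p = 0.00144). Its standard error is the smallest of all members.

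The other trunk genes did not pass. Tpi1, which interconverts the triose phosphates, stood at 5322 and 4609, and Pgam1, the phosphoglycerate mutase, at 3200 and 2683 in the deposited table. Their deposited log2 fold changes were -0.21 (adjusted p = 0.183) and -0.25 (adjusted p = 0.211). Gpi1, the isomerase that feeds both glycolysis and the pentose path, stood at 3958 and 3972 in the deposited table. The 95% interval of its log2 fold change, from -0.19 to 0.20, is among the narrowest of the members.

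At the end of glycolysis the liver isoform of pyruvate kinase fell. Pklr went from 8701 to 4212 in the deposited table, 2.07-fold lower (log2 fold change -1.05, implied SE 0.23, adjusted p = 0.000211). It spans 89136122 to 89146815 on chromosome 3. Pkm, the isoform of muscle and dividing cells, stood at 295 and 381 and did not pass (deposited log2 fold change 0.37, implied SE 0.21, adjusted p = 0.309). Pklr to Pkm per kilobase was 27.0 in WT and 10.1 in Huwe1_LKO, and Pkm made up 3.57% and 9.01% of the sum of both. Ldha, which turns pyruvate into lactate, stood at 10900.2 and 9772 in the deposited table (log2 fold change -0.16, implied SE 0.12, adjusted p = 0.53).

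The kinase gene of fructose entry fell as well. Khk, ketohexokinase, went from 7678 to 4597 in the deposited table, 59.9% of WT with a 95% interval from 50.7% to 70.8% (implied SE 0.12 on the log2 scale, adjusted p = 1.85e-07). It spans 30921436 to 30931248 on chromosome 5. The enzyme of a later step of fructose use, the triokinase Tkfc, is no member and fell from 10090 to 6796 in the deposited table (log2 fold change -0.57, adjusted p = 0.00431). Slc2a5, listed with the glucose and fructose carriers and no member, stood at 203 and 207 (deposited log2 fold change 0.03, adjusted p = 0.986).

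Pklr and Khk are textbook targets of ChREBP, a glucose-sensing factor that binds pairs of E-box-like half-sites. Promoter sequence is shown for 3 called members. Pklr held a match to the paired element, and Khk and Pfkfb3 held only a single E-box. RefSeq promoters (GRCm38.p6) were found for 32 of the 34 members, all but Gys2 and Ppp1r3b, in 52 windows of the 250 bases before a start. The carbohydrate response element, the half-sites CACGNG and CNCGTG with 5 bases between them, was searched on both strands. It was found in 1 member, Pklr, and in 13 of 32851 windows in the whole table (0.0396%). In Pklr it lies 170 to 154 bases before the downstream of its 2 starts. The single E-box CACGTG is not contained in that match. It was found in 6 members (Khk, Ldha, Pfkfb2, Pfkfb3, Pfkm and Ppp1r3c) and in 6.02% of all windows, or 6.86% of all genes. Of these 6, Khk fell, Pfkfb3 rose and 4 did not pass, where 4.41% of all genes were called higher and 5.56% lower. Capitals mark the matched letters, and the Pklr and Pfkfb3 windows end where a UTR is annotated. For Khk an annotated UTR begins before the end of the match, so 30 bases around the match are shown. That match (30921488 to 30921493) is thus not clear of annotated transcript. All 3 matches lie inside the gene spans given here.
Pklr, chr3:89136373-89136571, plus strand: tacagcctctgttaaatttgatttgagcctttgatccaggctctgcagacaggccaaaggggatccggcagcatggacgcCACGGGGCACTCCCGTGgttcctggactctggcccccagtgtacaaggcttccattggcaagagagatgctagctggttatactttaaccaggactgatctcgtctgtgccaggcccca
Khk, chr5:30921476-30921505, plus strand: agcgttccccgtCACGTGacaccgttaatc
Pfkfb3, chr2:11502102-11502340, minus strand: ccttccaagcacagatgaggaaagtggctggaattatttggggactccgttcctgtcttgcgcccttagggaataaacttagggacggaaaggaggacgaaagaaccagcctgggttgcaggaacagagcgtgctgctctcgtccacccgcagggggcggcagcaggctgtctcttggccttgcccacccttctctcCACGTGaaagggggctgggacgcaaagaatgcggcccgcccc

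A match describes letters and not binding, which was not measured here. Mlxipl, the gene of ChREBP, stood at 8406 (WT) and 6346 (Huwe1_LKO) in the deposited table (log2 fold change -0.41, adjusted p = 0.015). Whether ChREBP had a part in the changes of Pklr, Khk or Pfkfb3 was not tested. The Pfkfb3 window belongs to the downstream of 2 listed starts, and the table does not separate transcripts by start.

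Of 5 members of gluconeogenesis 1 was called, where 9.97% of all genes were. Pck2, the mitochondrial carboxykinase, rose from 44.1 to 94.98 in the deposited table, 2.15-fold (log2 fold change 1.11, implied SE 0.32, adjusted p = 0.0081). It remained a small part of the step. Pck1, the cytosolic enzyme and the usual gate of glucose production, stood at 28783 and 38863 and did not pass in the deposited table (log2 fold change 0.43, implied SE 0.26, adjusted p = 0.365). Pck2 was 0.118% of the summed per-kilobase level of both genes in WT and 0.188% in Huwe1_LKO.

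The later steps toward free glucose were not called. Fbp1, which reverses phosphofructokinase, stood at 18692 and 15043 in the deposited table (log2 fold change -0.31, implied SE 0.25, adjusted p = 0.578). G6pc, the catalytic subunit of glucose-6-phosphatase, stood at 4606 and 2761 (deposited log2 fold change -0.74, implied SE 0.40, adjusted p = 0.292). The deposited log2 fold change of G6pc was as large as that of Khk (-0.74), but its standard error was 0.40 against 0.12, and its 95% interval ran from -1.53 to 0.05. Slc37a4, which carries the phosphate ester into the endoplasmic reticulum for G6pc, stood at 2537 and 2229 (deposited log2 fold change -0.19, adjusted p = 0.688).

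Enzymes that work in opposite directions can be set side by side per kilobase in deposited values. Fbp1 to Pfkl was 78.0 in WT and 78.3 in Huwe1_LKO. Pck1 to Pklr, which make and use phosphoenolpyruvate, was 3.36 and 9.38. These are not opposed enzymes of 1 step, as the way back from pyruvate also needs Pcx, given below. No error can be given for these ratios, as the deviations of paired genes within a liver are not known.

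Glycogen genes moved in opposite directions. Gys2, the liver glycogen synthase that lengthens the chains, rose from 3291 to 5665 in the deposited table (log2 fold change 0.78, implied SE 0.17, adjusted p = 0.000166). Gbe1, the branching enzyme that acts on the same chains, fell from 2091 to 732 in the deposited table, 2.86-fold lower (log2 fold change -1.51, implied SE 0.23). With an adjusted p of 5.36e-09 in the deposited table it had the smallest p of all members. Gys2 spans 142422612 to 142473130 on chromosome 6, and Gbe1 70313949 to 70569720 on chromosome 16. Ugp2, which makes the UDP-glucose used by the synthase, stood at 7384 and 5360 and did not pass (deposited log2 fold change -0.46, implied SE 0.18, adjusted p = 0.0774).

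The gene of the main enzyme of glycogen breakdown fell. Pygl, the liver glycogen phosphorylase, went from 7201 to 4247 in the deposited table (log2 fold change -0.76, implied SE 0.14, adjusted p = 5.07e-06). It spans 70190815 to 70227683 on chromosome 12. Pygb, the brain isoform, stood at 48.8 and 54.5 in the deposited table (log2 fold change 0.16, implied SE 0.30, adjusted p = 0.847). Gys2 to Pygl per kilobase was 0.483 in WT and 1.41 in Huwe1_LKO, so that the order of the deposited levels turned around. Gys2 to Gbe1 was 1.76 and 8.66.

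Subunits that bring protein phosphatase 1 to glycogen, where it activates the synthase and shuts off the phosphorylase, all had deposited log2 fold changes below 0. Ppp1r3b, the main such subunit of liver, fell from 3536 to 1716 in the deposited table (log2 fold change -1.04, implied SE 0.23, adjusted p = 0.000271). Ppp1r3g, a subunit known to follow feeding, stood at 98.3 and 46.1 in the deposited table. Its log2 fold change of -1.09 was as large, but its implied SE of 0.55 was the highest of all members and it did not pass (adjusted p = 0.237). Ppp1r3c stood at 513 and 370.3 and did not pass either (deposited log2 fold change -0.47, implied SE 0.33, adjusted p = 0.481). Per kilobase, 6 subunit genes of this family summed to 1090.2 in WT and 580.3 in Huwe1_LKO, with Ppp1r3b at 76.7% and 69.9% of the sum.

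**Figure D4:**
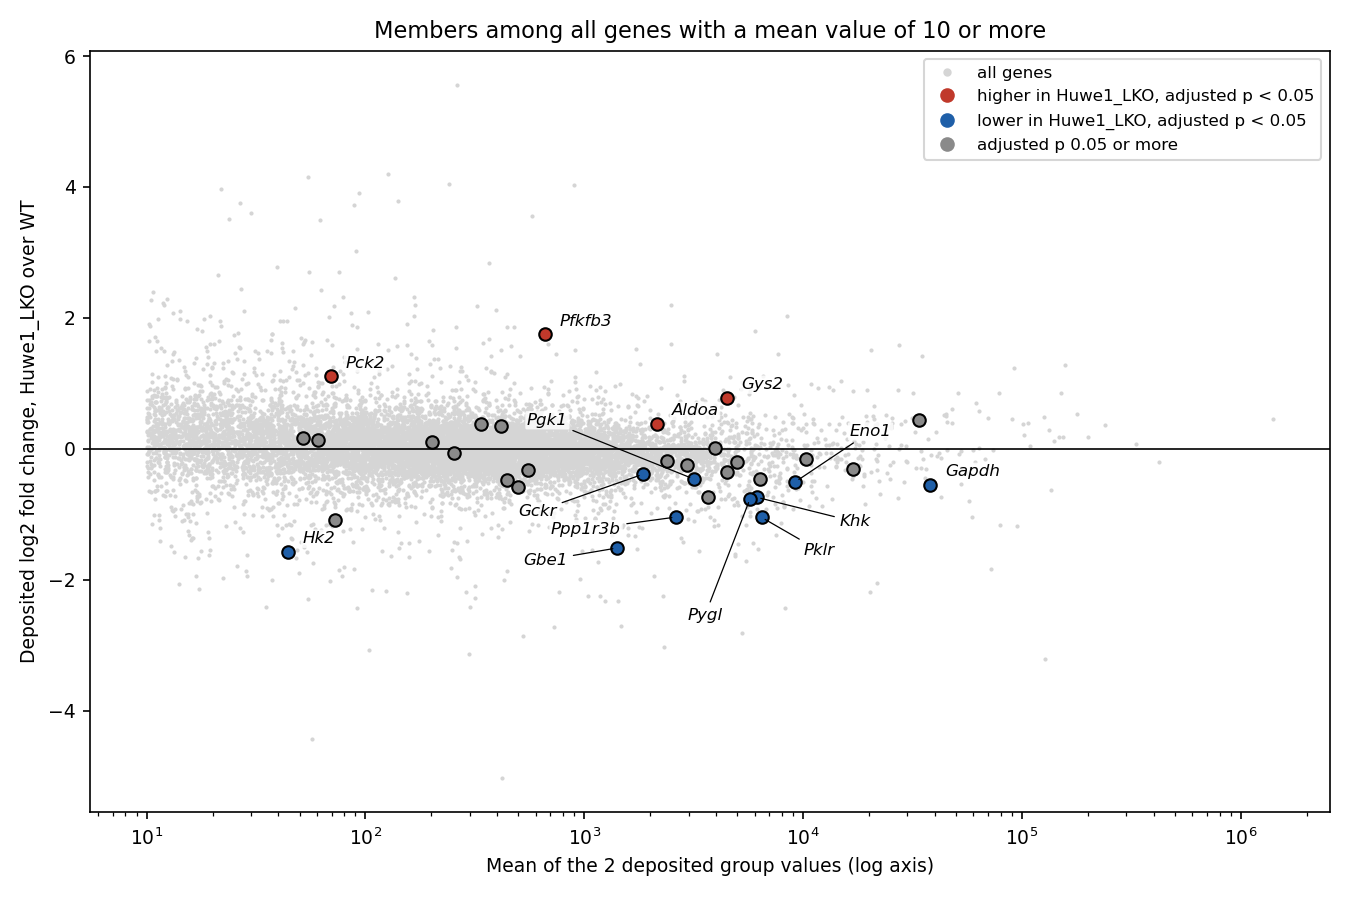
Deposited log2 fold change of Huwe1_LKO over WT against the mean of both group values (log axis), for all genes with a mean of 10 or more (small grey points) and the 34 members (large points, coloured by call, called members named). Most called members that fell lie to the right, at means over 1000, with Hk2 as the exception.

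The rest of the pathway was covered by a list of 55 more genes, of which 54 were matched. Of these, 2 rose and 9 fell in the deposited table, which is 20.4% called against 9.97% of all genes. Their median log2 fold change was -0.02, and many are isoforms with low values in liver. The largest change was that of Ldhb, the heart-type subunit of lactate dehydrogenase. It rose from 39.3 to 167 in the deposited table, 4.24-fold (log2 fold change 2.09, implied SE 0.28, adjusted p = 1.05e-11). Ldha to Ldhb per kilobase was 223 in WT and 47.1 in Huwe1_LKO, and Ldhb made up 0.447% and 2.08% of their sum.

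The other riser was Slc2a8, a sugar carrier of inner membranes, from 297 to 374 in the deposited table (log2 fold change 0.33, adjusted p = 0.0253). Falls beside Tkfc were seen in galactose use, glycogen and pyruvate entry. Galt, an enzyme of galactose use, fell from 1264 to 1016 (deposited log2 fold change -0.31, adjusted p = 0.0286). Pcx, pyruvate carboxylase, the first step from pyruvate to glucose, fell from 8815 to 6184 in the deposited table (log2 fold change -0.51, adjusted p = 0.0429).

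In glycogen handling, Phkb, a regulatory subunit of phosphorylase kinase, fell from 296 to 216 (deposited log2 fold change -0.46, adjusted p = 0.00249). Falls were also called for the lysosomal glucosidase Gaa (deposited log2 fold change -0.46, adjusted p = 0.0102) and the phosphoglucomutase Pgm2 (-0.33, adjusted p = 0.0428). Ppp1ca, a catalytic subunit of protein phosphatase 1, fell by 0.27 on the log2 scale in the deposited table (adjusted p = 0.0285). The kinases Gsk3a and Gsk3b, which restrain glycogen synthase, had deposited log2 fold changes of 0.12 and 0.02 and did not pass (adjusted p = 0.696 and 0.944). Gyg, the primer of glycogen, stood just outside the threshold at -0.48 (adjusted p = 0.0608) in the deposited table.

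**Figure D5:**
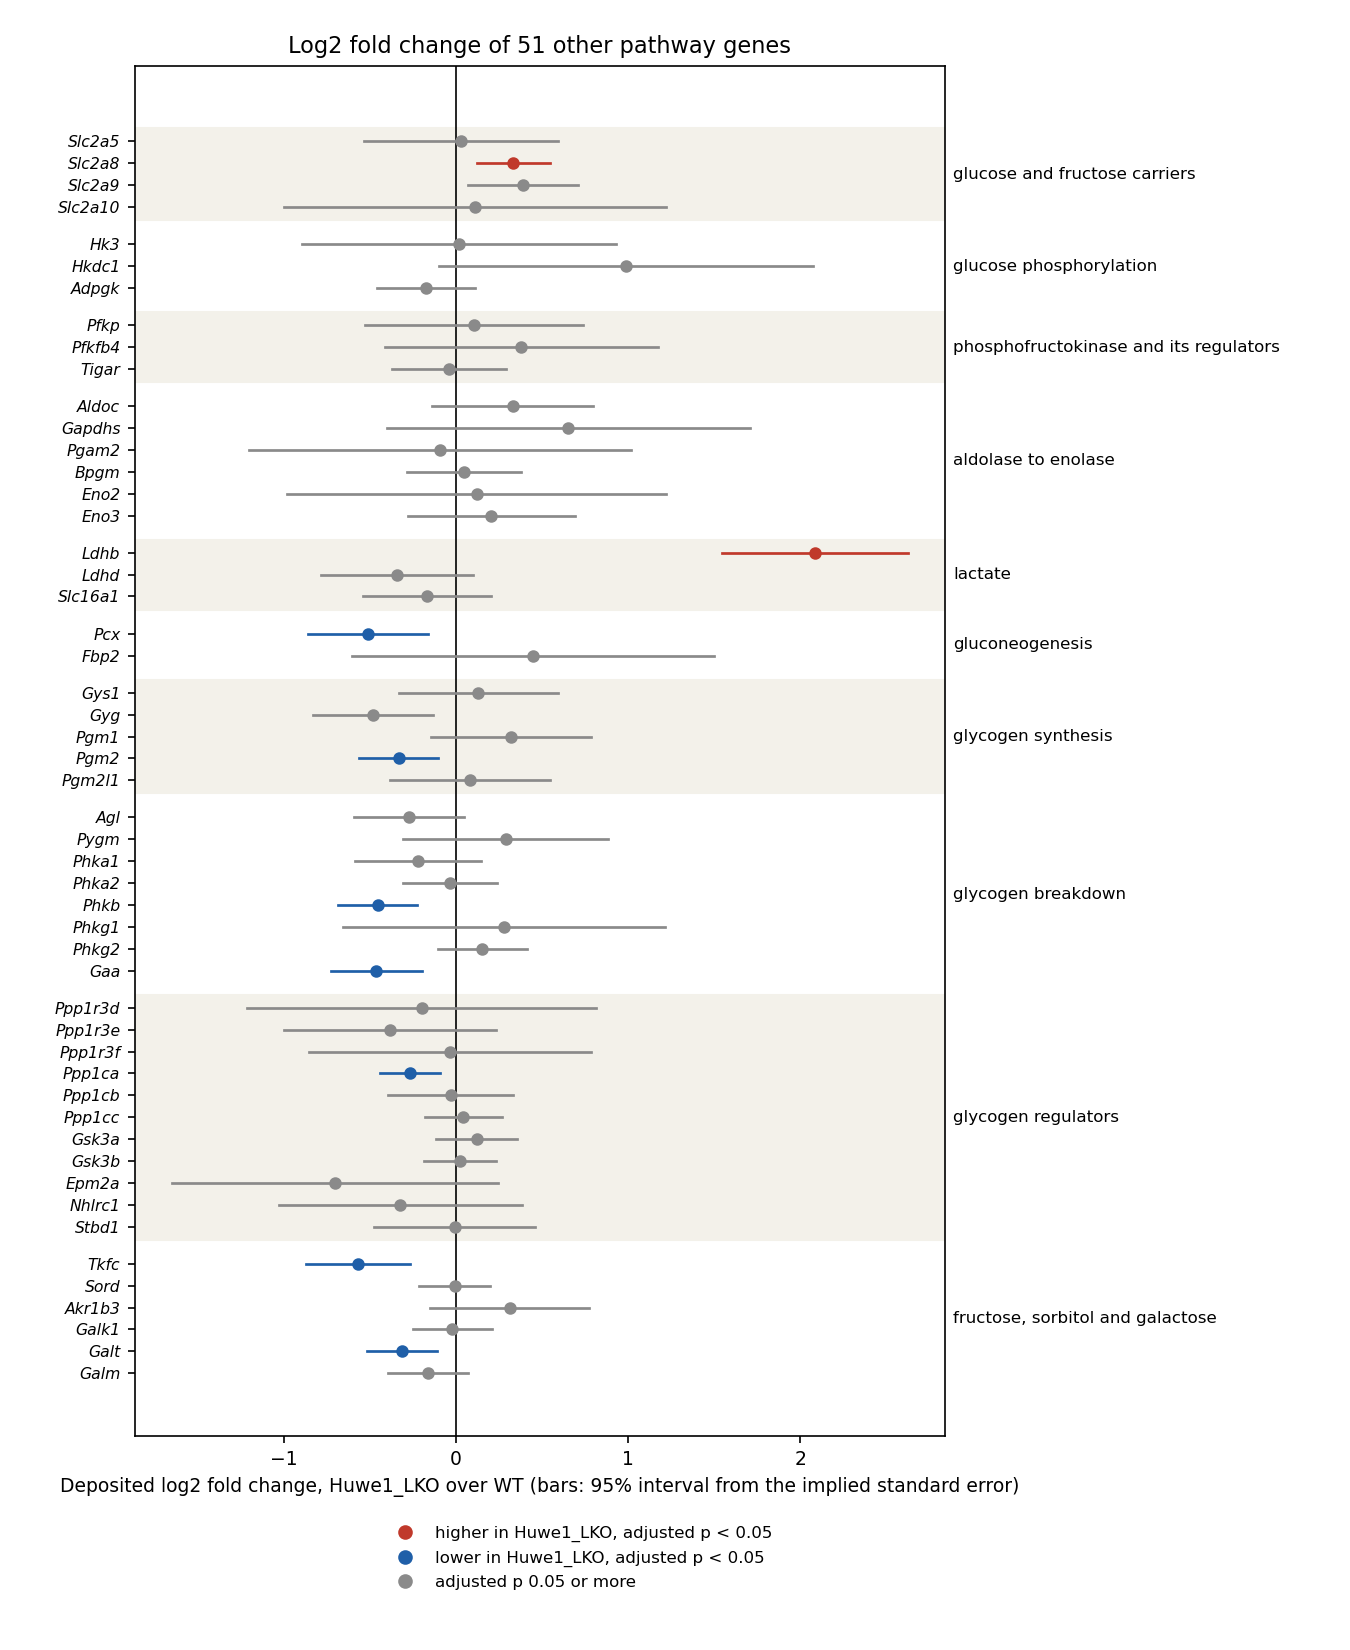
Deposited log2 fold change of Huwe1_LKO over WT for 51 of the 54 other genes of the pathway, with bars for the 95% interval from the implied standard error and colours for the call. Ldhb (2.09) stands at the right and Tkfc (-0.57) left of 0, and most isoforms with low values have wide bars across 0.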

How the data were processed

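The submitters' processing notes name mm10 and DESeq2 without a version, and the aligner and counting step are not stated in them. Per the file headers, the deposited expression columns give a normalized signal for each of both groups. The deposited log2 fold change equals the log2 ratio of those values to within 4.71e-08. The adjusted p-value the authors deposited matches Benjamini-Hochberg over all 16640 genes to within 1.74e-06. The 707 genes with the lowest means have log2 fold changes of only 0.109 to 0.117 in size. Shrinkage of fold changes may be the reason, but no source states it and it was not tested. It would also affect the group values, folds and implied standard errors of low members such as Hk2 and Pck2. The file holds group values, so the authors' calls are used, at an adjusted p under 0.05, and no fit over livers was made. The group values sum to 17347886 for WT and 17533080 for Huwe1_LKO and the depth per liver is unknown.

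Implied standard errors are the size of the log2 fold change over the normal score of the deposited two-sided p, which assumes a Wald test. The arithmetic of these errors and of the adjustment was checked on simulated data. There p was made with the same normal rule, so the check cannot test the Wald assumption. Values per kilobase use the deposited transcript length. Of the other pathway genes, 3 are counted but not reported here by name. Members and lists were chosen with earlier results of these data known. All called members are described with their values, as are isoforms of 1 reaction and called genes of the other list, those 3 apart. Symbols and coordinates of promoters are from RefSeq for GRCm38.p6, and UTRs from GENCODE M21, both of the mm10 assembly. Alternatives were a stricter threshold, a minimum fold, a filter on low values, 2 centrings and a pseudocount of 10. Figures were drawn with matplotlib 3.10.9 and values computed with pandas 2.3.3, numpy 2.4.6 and scipy 1.17.1 under Python 3.11.15.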

Additional observations from a re-analysis of the deposited data

How the results depend on the processing

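Of the 14 called members, 9 were called under every alternative that was run (a threshold of 0.01, a minimum fold of 1.5, adjustment over genes with a mean of 10 or more, and both centrings). The 5 others were Gckr, Pgk1, Gapdh, Eno1 and Aldoa. With a minimum fold of 1.5, 9 members were called, 6 of them lower, since those 5 changed by less. Gckr and Pgk1 were also lost at 0.01 and when fold changes were centred on the most abundant eighth of genes, whose median log2 fold change is -0.08 (adjusted p = 0.0722 and 0.0815). Near 0, Gpi1 turned to -0.0052 when centred on genes with a mean of 10 or more, and Pfkm to 0.0139 when centred on the abundant eighth. Among the other pathway genes, a threshold of 0.01 left 5 calls (1 higher, 4 lower), and a minimum fold of 1.5 left 3 calls (1 higher, 2 lower). Centring on the abundant eighth gave 3 higher, with Slc2a9 gained (adjusted p = 0.0406), and 5 lower. Adjustment over genes with a mean of 10 or more gave 12 calls, with Gyg gained (adjusted p = 0.0463). Of the 11 called, 3 were called under every one of these settings. With a pseudocount of 10 all 34 members kept their direction, and Gbe1 (-1.50) passed Hk2 (-1.24) as the largest fall.

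Over all genes, the calls under these settings were 975 at 0.01 and 967 with the minimum fold, against 1659. Centring on the abundant eighth made 1168 higher and 625 lower, against 734 and 925. Leaving out single livers was not run, as the file holds group values. No paired analysis was possible because the columns hold 1 value per group and carry no liver numbers.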
